A study of Mus musculus with 52 samples.

Results

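The genes described here are 10 cardiac genes chosen by symbol: Myh6, Myh7, Nppa, Nppb, Actc1, Acta1, Tnnt2, Tnni3, Myl2 and Myl7. All 10 were found among the 23382 genes listed for heart. The rule uses no measured value, but the genes were chosen with earlier results of these data known. Their heart values are the main subject, and 6 other tissues serve as background.

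RNA was sequenced from organs of male wild-type mice and of mice homozygous for a deletion of Tug1 (Tug1 knockout), a long noncoding RNA gene on chromosome 11. In the allele, named Tug1_tm1.1Vlcg, a lacZ reporter took the place of the gene body, and the hearts of both genotypes are labelled with the mixed background C57BL/6J/129S6. Each genotype had 3 samples of heart, liver, eyes, spleen and cultured embryonic fibroblasts (MEFs). Prostate had 3 wild-type and 2 Tug1 knockout samples, and testes had 4 of each plus 3 from rescue mice. Rescue mice are Tug1 knockout mice with a Tug1 transgene and the activator rtTA, through which doxycycline switches the transgene on. The authors kept the rescue mice on doxycycline food. The deposited tables hold the mean of each group in TPM, a unit that gives the abundance of a gene per length as a part of the whole library, and no value of a single sample. The authors' own comparisons of the genotypes, with their errors, stand in the same tables and were not used here. Without values of single samples no spread between mice was computed and no test was run, and the words higher and lower compare 2 means only. Ages of the mice are not given in the labels.

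Cardiac muscle contracts when myosin heads pull on thin filaments of actin, and calcium releases the block that troponin and tropomyosin place on that pull. Myh6 encodes alpha myosin heavy chain, the main heavy chain of the adult mouse heart, and Myh7 encodes the slower beta chain of the fetal and stressed heart. Actc1 and Acta1 encode cardiac and skeletal alpha-actin, Tnnt2 and Tnni3 the cardiac forms of troponin T and troponin I, and Myl2 and Myl7 the ventricular and atrial regulatory light chains of myosin. Nppa and Nppb encode the precursors of the natriuretic peptides ANP and BNP, hormones that lower blood volume and pressure. A higher level of Nppa, Nppb, Myh7 and Acta1 together is the classic fetal gene program of a heart under load.

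The sequences just before the start of 4 of these genes are shown because they carry motifs of factors known for cardiac and muscle transcription. They come from RefSeq (build GRCm38.p6) and run 5′ to 3′ on the strand of the gene. Each ends at the base before the RefSeq start, or for Actc1 before an exon that GENCODE starts slightly earlier. For Acta1 the RefSeq start lies a little before the deposited span. Capitals mark matches to 4 motifs, each searched on both strands. The first is the CArG box, which the factor SRF binds. The next are GATAA, known from the GATA family of factors, and CATTCC, known from the TEAD family. The last is TATAAA, found before the start of many tissue-specific genes. A CArG box can contain the last of these, but no matches overlap in the windows shown.
Nppa, chr4:148000572-148000721, plus strand: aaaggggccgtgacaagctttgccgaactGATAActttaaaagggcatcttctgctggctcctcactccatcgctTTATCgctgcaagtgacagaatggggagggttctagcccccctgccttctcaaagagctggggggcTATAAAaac
Myl7, chr11:5898783-5898932, minus strand: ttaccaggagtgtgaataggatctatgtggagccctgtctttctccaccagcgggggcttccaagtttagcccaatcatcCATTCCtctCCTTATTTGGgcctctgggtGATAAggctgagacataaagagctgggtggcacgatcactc
Actc1, chr2:114052888-114053025, minus strand: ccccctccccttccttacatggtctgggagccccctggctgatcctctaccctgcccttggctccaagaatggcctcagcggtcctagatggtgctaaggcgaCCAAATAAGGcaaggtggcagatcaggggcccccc
Acta1, chr8:123894776-123894925, minus strand: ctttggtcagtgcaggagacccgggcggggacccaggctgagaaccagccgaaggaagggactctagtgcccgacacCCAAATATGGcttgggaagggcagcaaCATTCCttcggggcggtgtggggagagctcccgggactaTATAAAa

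All 10 genes have an entry in the RefSeq promoter table, with 13 starts among them. In the 250 bases before each start, a CArG box was present in 3 of the 13 windows (Acta1, Actc1 and Myl7), against 1.47% of all 32851 windows of that length. GATAA was present in 5 of the 13 (Myl2, Myl7, Nppa, Nppb and Tnnt2) against 22.6% of all windows, CATTCC in 6 against 12.6%, and TATAAA in 4 against 12.4%. Both Myl2 windows lie well before the span of Myl2 in the deposited table. The Actc1 window lies in an intron of a longer Actc1 transcript. The Myh6 window with a match lies inside the deposited span of Myh6. The RefSeq start of Nppb lies within the deposited span of Nppb, and so do all the Nppb matches. A match of letters is a description of the sequence and not evidence of binding.

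The mean of Tug1 itself was 11.6 TPM in wild-type hearts and 0.0544 TPM in hearts of Tug1 knockout mice, which is 0.470% of the wild-type mean. The cardiac identity of the tissue was clear from Myl3 (ventricular essential light chain), at 4537 TPM, and Tnnc1 (cardiac troponin C), at 3850 TPM, in wild type. Transcripts encoded by the mitochondrial genome made up 47.5% of TPM in wild-type hearts and 43.8% in Tug1 knockout hearts. Since TPM is a share, this difference alone places nuclear genes higher in Tug1 knockout hearts. Across the 14004 heart genes that reached a mean of 1 TPM in one genotype or both, the median log2 ratio of Tug1 knockout over wild type was 0.09. All ratios on a log2 scale were computed on the mean TPM plus 1.

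The 10 genes were abundant in heart. Together they held 2.74% of TPM in wild type and 3.20% in Tug1 knockout, or 5.21% and 5.70% of the TPM of nuclear genes. In wild-type hearts the order of the mean TPM was Actc1, Myl2, Myh6, Tnni3, Tnnt2, Nppa, Myl7, Nppb, Acta1 and Myh7, and the same order held in Tug1 knockout hearts. Actc1, at 7383 TPM in wild type, was the 13th of all heart genes listed, whereas Myh7, at 51.4 TPM, was the 1409th. With no spread between samples, it cannot be said which neighbours in this order differ.

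**Figure D1:**
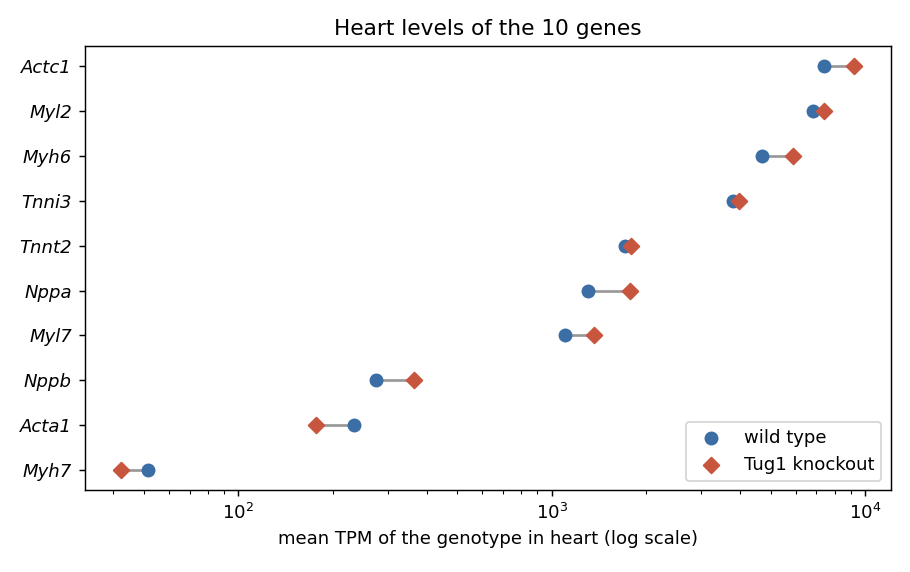
Mean TPM of each gene in heart (log axis) for wild type (circles, 3 samples) and Tug1 knockout (diamonds, 3 samples), joined by a line. Points are the authors' group means, drawn without an error. As deposited, 8 of the 10 genes have the higher mean in Tug1 knockout, but Tnnt2 and Tnni3 change side when the mitochondrially encoded genes are left out.

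A level compared between these genes depends on the gene length behind the TPM. The mean normalized read count per TPM was between 11.9 for Myl7 and 175 for Myh7, and it followed the combined length of all exons of a gene, at 49.1 to 50.0 bases per unit in all 10 genes. For Tnnt2 the combined exons span 7752 bases, 2.33 times its longest annotated transcript of 3330 bases. The same factor was 2.26 for Tnni3 and 2.19 for Myl2, while Nppa, Nppb and Myl7 have a single transcript that spans all their exons. By normalized read count Tnnt2 had rank 3 of the 10 genes, and by TPM it had rank 5. The ratio between genotypes of a single gene is free of this length. The exon lengths were taken from GENCODE vM21, a later release than the vM16 used for the counting.

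No gene of the 10 was at least 1.5-fold higher in Tug1 knockout hearts, where 1.09% of all heart genes were, and none was at least 1.5-fold lower, where 1.31% of all heart genes were. At a lower limit, a ratio of 5 to 4, 3 were higher (Nppa, Nppb and Myh6) against 5.00% of all heart genes, and 1 was lower (Acta1) against 3.46%. Centred on the median of heart genes, the same limit left 1 higher (Nppa) against 2.59% of all heart genes and 2 lower (Acta1 and Myh7) against 5.07%. With mitochondrially encoded genes left out, it was again 1 higher (Nppa) against 3.79% and 2 lower (Acta1 and Myh7) against 6.70%. The median log2 ratio of the 10 genes was 0.22, beside the 0.09 of all heart genes. As deposited, 8 of the 10 had the higher mean in Tug1 knockout and 2 (Myh7 and Acta1) had the lower, where 74.8% of all heart genes, and 76.0% of those at 1000 TPM or more in wild type, had the higher mean in Tug1 knockout. The count of 8 is thus near the background share, and the split was 6 to 4 both when ratios were centred on the median of heart genes and when mitochondrially encoded genes were left out of the TPM.

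**Figure D2:**
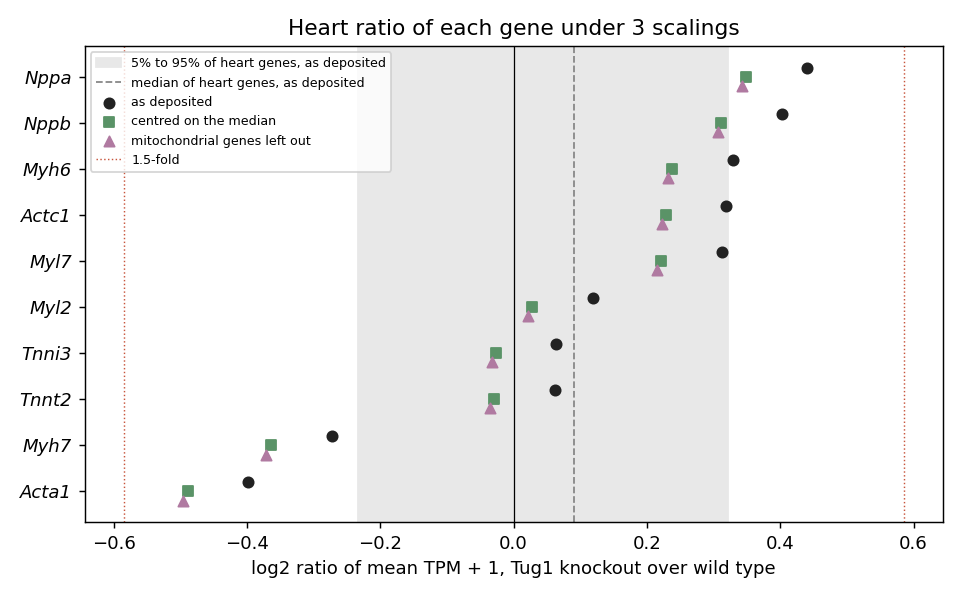
Log2 ratio of mean TPM + 1 in heart, Tug1 knockout over wild type, for each gene as deposited (circles), centred on the median of heart genes (squares) and with mitochondrially encoded genes left out (triangles). The grey band holds the central 5% to 95% of heart genes and dotted lines stand at 1.5-fold. Nppa and Nppb lie highest and Acta1 and Myh7 lowest under each scaling, and Tnnt2 and Tnni3 cross 0.

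The natriuretic peptide genes had the largest ratios of the 10 genes. Nppa (chr4:148000722-148002079), whose product ANP is released mainly from the atria, had a mean of 1308 TPM in wild type against 1774 TPM in the Tug1 knockout hearts, a ratio of 1.36 and a log2 ratio of 0.44. Nppb (chr4:147985788-147987205) had 276 TPM in wild type against 365 TPM in the Tug1 knockout hearts, a ratio of 1.32. Both stayed higher with mitochondrially encoded genes left out, at 1.27 for Nppa and 1.24 for Nppb. Both genes lie on the plus strand with 13516 bases between them, and the window before Nppa shown above holds GATAA in 2 places. Nppa exceeded Nppb 4.74 times in wild type and 4.86 times in Tug1 knockout, a ratio that rescaling the means of a genotype leaves as it is. Of the 75 heart genes with a wild-type mean of at least 1000 TPM, none had a larger log2 ratio than Nppa. Of the 624 genes between 100 and 1000 TPM, 10 had a larger one than Nppb. An antisense gene that overlaps Nppa, Gm13054, had 3.55 TPM in wild type against 6.01 TPM in the Tug1 knockout hearts, levels far below those of Nppa. Gm13054 and the other overlapping genes given here were chosen after their values were seen.

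The myosin heavy chain genes stood on opposite sides. Myh6 (chr14:54941921-54966927) had 4692 TPM in wild type against 5894 TPM in the Tug1 knockout hearts, a ratio of 1.26. Myh7 (chr14:54970684-54994626), its neighbour 3756 bases away on the same strand, had 51.4 TPM in wild type against 42.4 TPM in the Tug1 knockout hearts, a ratio of 0.824. Myh7 therefore made up 1.08% of the TPM of both heavy chains in wild type and 0.714% in Tug1 knockout. Their sequences are alike over long stretches, and the authors counted uniquely mapped reads only, so each count leaves out reads that fit both genes.

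Several genes overlap the Myh7 locus, and all had a higher mean in Tug1 knockout hearts, as did 74.8% of all heart genes. Mhrt, an antisense long noncoding RNA, had 41.1 TPM in wild type against 52.2 TPM in Tug1 knockout, a ratio of 1.27. The ratio was 1.54 for Mir208b, a microRNA gene within Myh7, with 88.2 and 135 TPM. On the opposite strand the ratios were 1.61 for Gm17428 (24.7 and 39.8 TPM), 1.53 for CT025533.2 (14.8 and 22.6 TPM) and 1.77 for Gm29015 (1.88 and 3.32 TPM). Gm17428 overlaps Myh7 by only 93 bases. Mhrt amounted to 0.801 of the Myh7 TPM in wild type and 1.23 of it in Tug1 knockout. Whether the counting used strand is not stated, so reads of Myh7 and of its antisense genes cannot be told apart where they overlap, and the TPM of a gene as short as Mir208b rests on few bases.

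The alpha-actin genes also stood on opposite sides. Actc1 (chr2:114047282-114053548) had 7383 TPM in wild type against 9212 TPM in the Tug1 knockout hearts, which is 125% of wild type. Acta1 (chr8:123891769-123894751) had 234 TPM in wild type against 177 TPM in the Tug1 knockout hearts, a ratio of 0.758, the lowest of the 10 genes. Acta1 gave 3.07% of the TPM of both alpha-actins in wild type and 1.89% in Tug1 knockout. Of the 624 heart genes between 100 and 1000 TPM, 3 had a lower log2 ratio than Acta1. Both actin windows shown above hold a CArG box. A530058N18Rik, which overlaps Actc1 on the opposite strand, had a lower mean in Tug1 knockout hearts, with 6.73 and 6.02 TPM. The coding sequences of these actins are nearly the same, and reads that fit both were not counted.

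Acta1 is also the main actin of skeletal muscle, and markers of skeletal muscle fibres were much lower in the Tug1 knockout hearts. Of the 13 markers at 1 TPM or more, 10 were at least 1.5-fold lower in Tug1 knockout, against 1.31% of all heart genes. None was as much higher, against 1.09%, and the median log2 ratio was -2.23. Most of the 10 lower markers reached 1 TPM only in wild type, so the filter itself favours lower ratios. Tnnt3, fast skeletal troponin T, had 31.5 TPM in wild type against 0.763 TPM in Tug1 knockout. Mylpf, the fast skeletal regulatory light chain, had 20.2 and 1.34 TPM. Myh1, a fast skeletal myosin heavy chain, had 7.22 and 0.0141 TPM. Atp2a1, the fast skeletal calcium pump, had 13.0 and 0.813 TPM, and Myh4 had 4.24 TPM in wild type and is listed at 0 in Tug1 knockout. The 2 most abundant markers of the list in wild-type heart differed far less. Ckm, muscle creatine kinase, had 1005 and 1199 TPM, and Myl1, an alkali light chain, had 52.1 and 47.2 TPM. The summed level of all 14 markers, of which Ckm is the largest part, was 1181 TPM in wild type against 1266 TPM in Tug1 knockout. The difference in Acta1, Tug1 knockout minus wild type, was -56.5 TPM. The part of skeletal fibres in the Acta1 ratio was not tested, and which of the 3 wild-type hearts held these transcripts cannot be seen in means.

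The troponin genes differed least. Tnnt2 (chr1:135836354-135852260) had 1719 TPM in wild type against 1795 TPM in the Tug1 knockout hearts, a ratio of 1.04. Tnni3 (chr7:4518305-4524229) had 3792 and 3964 TPM, a ratio of 1.05. Tnni3 exceeded Tnnt2 2.21 times in both genotypes. With mitochondrially encoded genes left out, their log2 ratios were -0.03 and -0.03, so neither gene has a direction that holds under every scaling.

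The regulatory light chain of the ventricle, Myl2 (chr5:122100951-122113472), had 6824 TPM in wild type against 7411 TPM in the Tug1 knockout hearts, a ratio of 1.09. The atrial light chain, Myl7 (chr11:5896637-5898782), had 1102 and 1368 TPM, a ratio of 1.24. Myl7 amounted to 0.161 of the Myl2 TPM in wild type and 0.185 in Tug1 knockout. Myl7 lies on the chromosome of Tug1, 2.25 Mb away.

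Markers of atrial muscle spread from the level of all heart genes to well above it. All 6 had a higher mean in Tug1 knockout hearts, against 74.8% of all heart genes, also under centring and with mitochondrially encoded genes left out, and their median log2 ratio was 0.30. Bmp10, a growth factor of atrial muscle, was at least 1.5-fold higher, with 57.4 TPM in wild type against 94.3 TPM in Tug1 knockout. Myl4, the atrial essential light chain, had 199 and 251 TPM. Sln, sarcolipin, which restrains the calcium pump, had 196 and 214 TPM, a log2 ratio of 0.13 that is close to the 0.12 of the ventricular Myl2. The 3 ventricular markers had a median of -0.04, with 4537 and 4859 TPM for Myl3 and 22.5 and 21.8 TPM for Irx4, a ventricular transcription factor. Myl4 amounted to 0.0438 of Myl3 in wild type and 0.0516 in Tug1 knockout. In a whole-organ sample, more atrial tissue in the piece and more RNA of these genes per atrial cell cannot be told apart.

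The other sarcomere genes of the gene list each had a smaller log2 ratio than Nppa. In the atrial list Bmp10, at 0.71, and Mybphl, at 0.44, reached or passed the 0.44 of Nppa. Mybphl was named after its value was seen. Of 19 other sarcomere genes, 18 reached 1 TPM, 17 of those had a higher mean in Tug1 knockout, 15 lay above the median of heart genes, and none was 1.5-fold apart. Their median log2 ratio was 0.15 and their range ran from -0.01 to 0.33. Myl3 and Tnnc1, the most abundant, had ratios of 1.07 each. The 8 calcium handling genes had a median of 0.22 with 6 above 0, against 74.8% of all heart genes, and 6 above the median of heart genes, among them Atp2a2, the cardiac calcium pump, at 3754 and 4617 TPM, whereas Pln, its inhibitor phospholamban, had 1198 and 1196 TPM.

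Most genes around the natriuretic peptides lay near the median of heart genes or below it. Of the 8 genes for their processing and receptors, 7 reached 1 TPM and their median log2 ratio was 0.05, below that of all heart genes. Corin, the protease that activates ANP, had 74.0 TPM in wild type against 89.6 TPM in the Tug1 knockout hearts, and Npr2, a receptor for the C-type peptide, had 26.1 and 28.7 TPM. Furin, another protease of precursor processing, had the largest ratio of these 7 at 1.28, with 21.2 and 27.2 TPM, and its log2 ratio of 0.34 lay above the 95% point of heart genes, 0.32. None of the 7 was 1.5-fold apart. Furin was named after its value was seen.

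Of 7 genes that respond to cardiac load, 6 had a higher mean in Tug1 knockout, against 74.8% of all heart genes, and 5 lay above the median of heart genes. Their median log2 ratio was 0.17, and 1 gene was at least 1.5-fold higher, against 1.09% of all heart genes. That gene was Ctgf, a matrix-associated signal of stretched and fibrotic tissue, with 59.3 TPM in wild type against 105 TPM in Tug1 knockout. The mean of Ctgf was higher in Tug1 knockout in each of the 7 tissues, with ratios of 2.79 in liver and 2.16 in prostate against 1.76 in heart. Ankrd1, a stretch-responsive titin partner, had 1016 and 1185 TPM, and Fhl1 had 85.5 and 85.4 TPM. Of 12 cardiac transcription factors, 11 had a higher mean, 10 lay above the median of heart genes, none was 1.5-fold apart, and the median was 0.21. Gata4 had 54.5 and 57.6 TPM and Mef2d 53.1 and 60.5 TPM. Of the 4 genes of the fetal program, Nppa and Nppb had higher means and Myh7 and Acta1 lower ones.

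**Figure D3:**
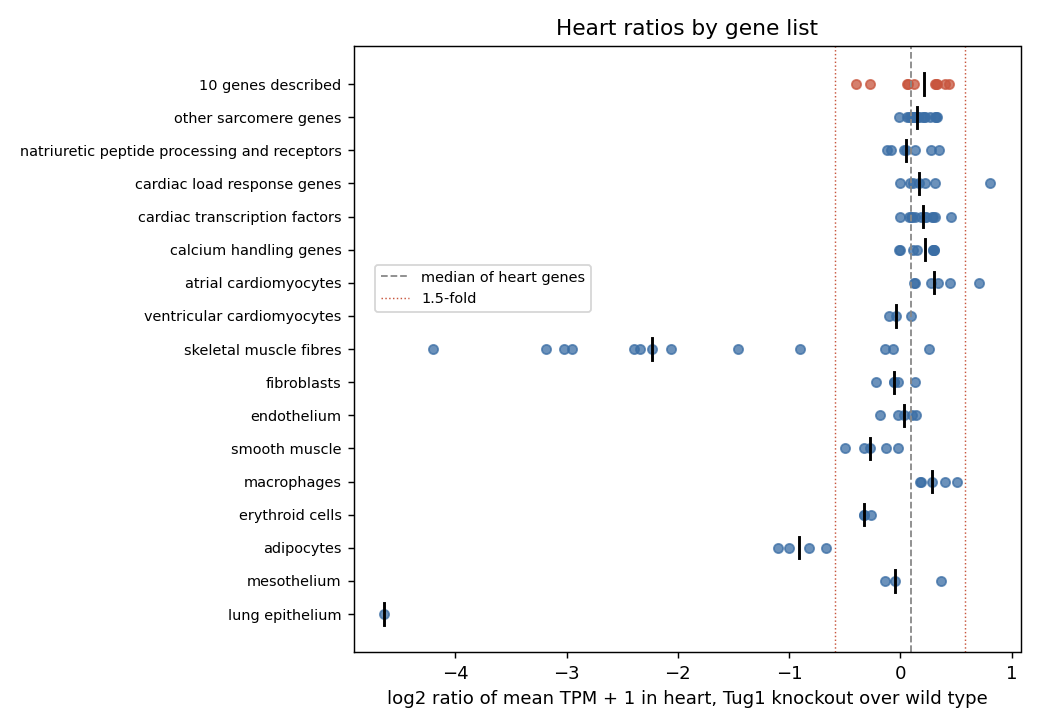
Log2 ratio of mean TPM + 1 in heart, Tug1 knockout over wild type, for the 10 genes and each gene list. Points are genes that reached a mean of 1 TPM in one genotype or both, vertical ticks are list medians, the dashed line is the median of heart genes (0.09) and dotted lines stand at 1.5-fold. Most skeletal muscle fibre and all adipocyte markers lie left of the 1.5-fold line, and the cardiac lists lie between the dotted lines apart from Ctgf and Bmp10.

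Markers of further cell types differed between the heart groups as well. All 4 adipocyte markers were at least 1.5-fold lower in Tug1 knockout, against 1.31% of all heart genes. Adipoq had 32.2 and 14.5 TPM and Cfd 135 and 76.3 TPM. Plin1 had 10.3 and 4.66 TPM, and Lep 1.38 and 0.492 TPM. The 3 erythroid markers had a median log2 ratio of -0.32, with Hbb-bs at 29200 and 23318 TPM and Hba-a1 at 7545 and 6012 TPM, and the 5 smooth muscle markers one of -0.27, with Rgs5 at 301 and 296 TPM and Acta2 at 181 and 165 TPM. Macrophage markers had a median of 0.29 over 5 genes, with C1qa at 99.4 and 142 TPM and Csf1r at 29.2 and 35.9 TPM. The medians were -0.06 for 5 fibroblast markers (Dcn 277 and 266 TPM, Lum 90.9 and 89.3 TPM), 0.03 for 5 endothelial markers (Cdh5 131 and 134 TPM, Pecam1 82.6 and 88.6 TPM) and -0.05 for 3 mesothelial markers (Upk3b 26.4 and 25.5 TPM, Msln 24.8 and 22.5 TPM). The airway marker Scgb1a1 had 26.3 TPM in wild type against 0.0995 TPM in Tug1 knockout, beside 0.265 and 0.0152 TPM for the alveolar marker Sftpc. Their part in the ratios of the 10 genes was not tested.

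The wider set of heart-restricted genes had a median near that of all heart genes. These are genes with at least 10 TPM in wild-type heart that make up at least 95% of their summed wild-type means over the 7 tissues, a sum that joins the testes table to the other. The set held 39 genes, 7 of them from the 10 described here and 32 others. The others had a median log2 ratio of 0.10, close to the 0.09 of all heart genes, and 18 of 32 lay above that value. Of these others, 4 were at least 1.5-fold higher, against 1.09% of all heart genes, and 1, Scgb1a1, at least 1.5-fold lower, against 1.31%. Those shares rest on genes at 1 TPM in either genotype, whereas this set was filtered on wild-type means alone, which favours lower ratios. Scgb1a1 entered the set through its wild-type mean only. The most abundant of them outside the gene lists were Hspb7 (a cardiovascular small heat shock protein, 1452 and 1586 TPM), Gm34302 (177 and 157 TPM), Lrrc10 (a cardiac leucine-rich repeat protein, 128 and 223 TPM), Adprhl1 (124 and 138 TPM) and Mir208b. Of the 4 higher genes, Mir208b and Gm17428 overlap Myh7, and the others were Lrrc10 and Bmp10.

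Across the 7 tissues, 9 of the 10 genes had their highest wild-type mean in heart, and the same number held with the Tug1 knockout means. Leaving aside testes, which stand in a separately made table, the heart mean of Myh6 exceeded that of the next tissue 9435 times, that of Nppa 929 times and that of Myl7 661 times. For Nppb the factor was 7.70, because MEFs held 35.8 TPM in wild type against 34.6 TPM in Tug1 knockout. For Myh7 it was 4.91, with 10.5 TPM in wild-type eyes. Acta1 was the exception, with 1277 TPM in wild-type eyes, 478 in prostate, 250 in MEFs and 234 in heart. Myh6 had 0.694 TPM in wild-type testes, and no gene of the 10 had its highest mean there.

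**Figure D4:**
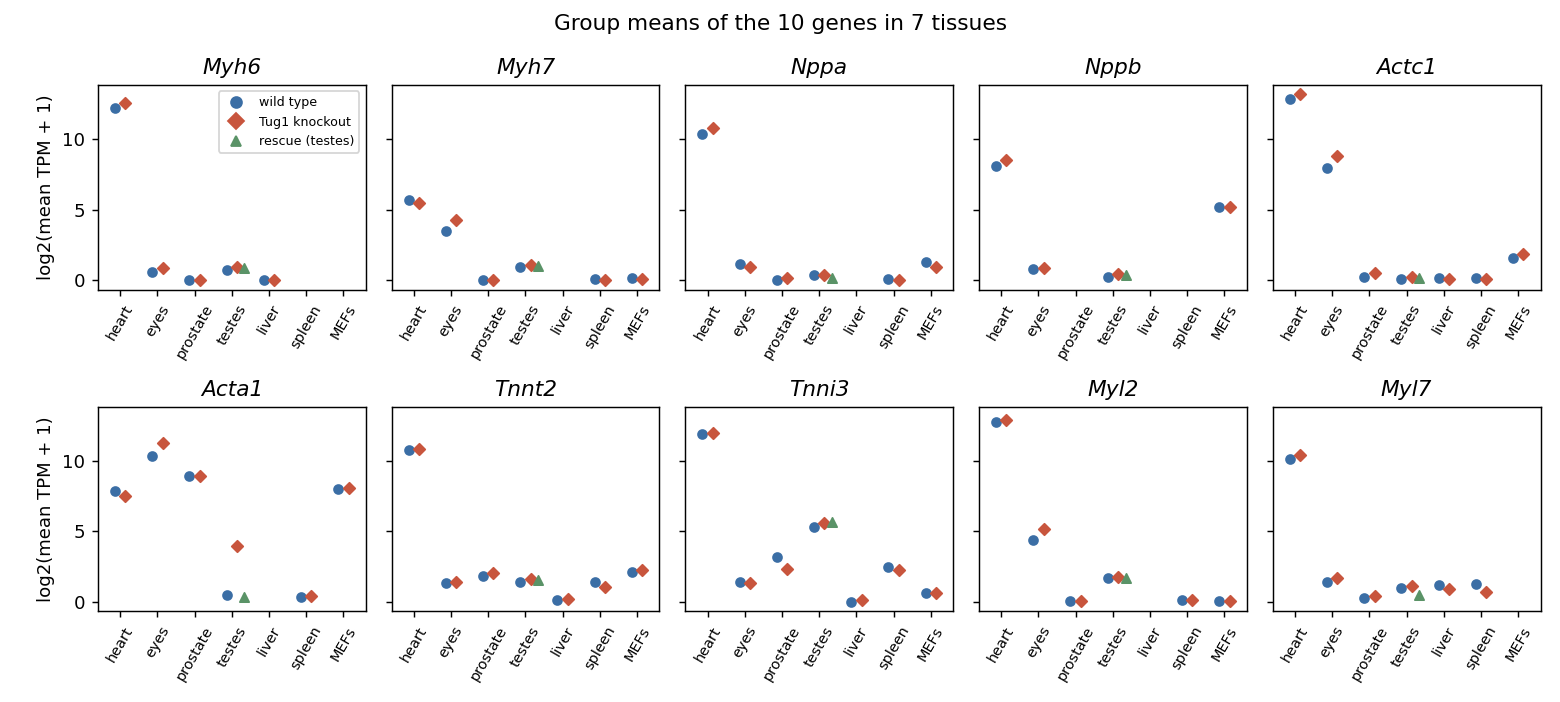
Log2 of the mean TPM + 1 of each gene in 7 tissues for wild type (circles), Tug1 knockout (diamonds) and, in testes, rescue mice (triangles). A gene without a point is not listed for that tissue. Heart holds the highest wild-type mean of every gene shown but Acta1, and Acta1, Actc1, Myh7 and Myl2 lie higher in Tug1 knockout eyes.

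In eyes, 8 of the 10 genes reached 1 TPM and 4 were at least 1.5-fold higher in Tug1 knockout, against 2.14% of all eye genes. Acta1 had 1277 TPM in wild type against 2464 TPM in the Tug1 knockout eyes, Actc1 244 and 448 TPM, Myl2 20.4 and 34.8 TPM, and Myh7 10.5 and 17.8 TPM. Skeletal muscle also expresses these genes, some of them only in part of its fibres, and the eye carries skeletal muscle on its outside. Of 14 skeletal muscle fibre markers, 12 were at least 1.5-fold higher in Tug1 knockout eyes, and their sum was 8917 TPM in wild type against 15247 TPM in Tug1 knockout. The 4 adipocyte markers were also higher in Tug1 knockout eyes, with a sum of 132 TPM in wild type against 620 TPM in Tug1 knockout. All 3 erythroid markers were at least 1.5-fold higher there too, with sums of 590 and 1816 TPM and a median log2 ratio of 1.47. The part of fibres, fat and blood in these ratios was not tested. The genes most restricted to cardiac muscle were low in eyes, with 0.497 and 0.833 TPM for Myh6 and 1.17 and 0.907 TPM for Nppa.

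In testes, 6 of the 10 genes reached 1 TPM and 1, Acta1, was at least 1.5-fold higher in Tug1 knockout, against 1.37% of all testes genes. Acta1 had 0.380 TPM in wild type, 14.8 TPM in Tug1 knockout and 0.276 TPM in rescue testes. Of the 14 skeletal muscle fibre markers, 12 had their highest mean in Tug1 knockout testes, and 6 shared the full order of Acta1, with rescue below wild type. The exceptions to the first were Myh13, highest in wild type at 0.576 TPM, and Actn3, highest in rescue with 9.89, 14.2 and 16.0 TPM in wild type, Tug1 knockout and rescue. Tnnt3 had 0.113, 9.48 and 0.0899 TPM, Myh4 had 0.0876, 6.25 and 0.0526 TPM, and Mylpf had 2.91, 8.70 and 2.62 TPM in wild type, Tug1 knockout and rescue. Of the 11 fibre markers at 1 TPM or more, 9 were at least 1.5-fold higher in Tug1 knockout testes. Most of these 9 markers, and Acta1, reached 1 TPM in Tug1 knockout but not in wild type, so the filter itself favours higher ratios. In the same groups 2 of 3 erythroid markers were at least 1.5-fold lower, against 2.29% of all testes genes, and 1 of 3 adipocyte markers at 1 TPM or more and 1 of 5 smooth muscle markers were at least 1.5-fold higher. The part of these cells in the Acta1 ratio was not tested. Tnni3 had 39.4 TPM in wild type, 46.5 TPM in Tug1 knockout and 48.8 TPM in rescue testes, and Dnaaf3, a gene of ciliary assembly that overlaps it by 1297 bases on the same strand, had 107, 112 and 115 TPM. Reads in that overlap cannot be assigned to Tnni3 or Dnaaf3. Myl2, with 2.30, 2.38 and 2.23 TPM, is overlapped by Ccdc63 on the opposite strand, at 96.2, 96.6 and 97.4 TPM.

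**Figure D5:**
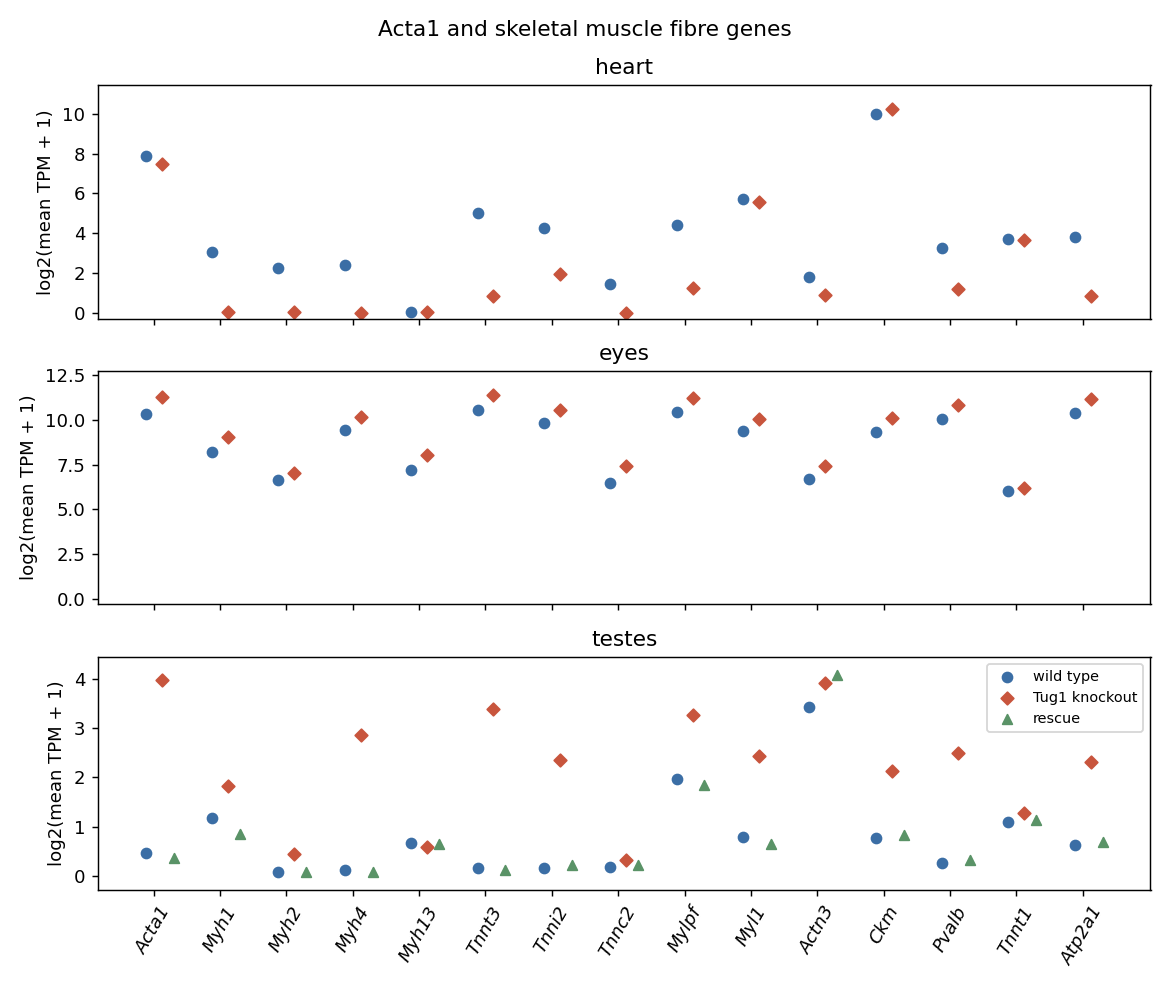
Log2 of the mean TPM + 1 of Acta1 and 14 skeletal muscle fibre markers in heart, eyes and testes for wild type (circles), Tug1 knockout (diamonds) and rescue mice (triangles, testes only). The y axes differ between panels. In Tug1 knockout, Acta1 and most fibre markers have lower means in heart and higher means in eyes and testes, and rescue testes lie near wild type for these genes apart from Actn3.

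In prostate, 3 of the 10 genes reached 1 TPM and 1, Tnni3, was at least 1.5-fold lower in Tug1 knockout, against 1.44% of all prostate genes. Tnni3 had 8.05 TPM in wild type against 4.05 TPM in the Tug1 knockout prostate, and the overlapping Dnaaf3 had 9.86 and 5.85 TPM. The Tug1 knockout mean there rests on 2 samples. In the same samples the 4 adipocyte markers were all at least 1.5-fold higher in Tug1 knockout, with sums of 79.5 and 417 TPM, as were 3 of 5 macrophage and 2 of 3 erythroid markers, against 3.31% of all prostate genes. Their part in the Tnni3 ratio was not tested. Acta1 had 478 TPM in both genotypes of prostate, where skeletal muscle fibre markers summed to 22.6 TPM in wild type against 24.4 TPM in Tug1 knockout. In liver, spleen and MEFs none of the listed genes was 1.5-fold apart in either direction on the mean TPM plus 1. MEFs held 250 TPM of Acta1 in wild type and 266 TPM in Tug1 knockout, and Tnnt2 had 3.28 and 3.85 TPM.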

How the data were processed

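RNA of the tissues was made into polyA libraries (TruSeq v2). The authors used STAR for alignment to GRCm38 (mm10) and featureCounts for unique reads in genes of GENCODE vM16. They dropped a gene if no replicate reached 3 reads, and deposited mean TPM per group. Where 7 tissues share a column, the authors' TPM is handled as a signal column. Brain rows from libraries outside this series are not used here. The deposited mean of normalized counts per gene, a score averaged over both genotypes by the authors' DESeq2 run, served only as a measure of depth. Depth per sample is unknown. The tables also hold the authors' log2 fold changes, standard errors, p-values and adjusted p-values, which were not used.

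From the means, log2 ratios of TPM plus 1 were computed with Python 3.11.15, pandas 2.3.3 and numpy 2.4.6 for genes with at least 1 TPM in either genotype, and a gene was called at 1.5-fold. The steps were tested on simulated data. Alternatives were a pseudocount of 0.1, centring, TPM without mitochondrially encoded or without sarcomere genes, other folds, minimums and shares. The 10 genes and all gene lists were chosen with earlier results of these data known. Named genes were these 10 and Tug1, genes of a list 1.5-fold apart in heart (up to 5 per list), the 2 most abundant of each list, and the 5 most abundant heart-restricted genes in no list. Overlapping genes and genes named for other tissues were chosen after their values were seen. Testes of F1 hybrid mice (6 samples) were not analysed here.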

Additional observations from a re-analysis of the deposited data

How the results depend on the processing

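With a limit at a ratio of 5 to 4 in place of 1.5-fold, 3 of the 10 genes were higher and 1 was lower in Tug1 knockout hearts as deposited. That limit gave 1 higher and 2 lower both with centring and with mitochondrially encoded genes left out, pairings added after seeing the data. Both counts stayed at 0 with a limit of 2-fold, and at 1.5-fold with a pseudocount of 0.1 and each scaling. The median log2 ratio of the 10 genes ran from 0.12 with mitochondrially encoded genes left out to 0.23 with sarcomere genes left out of the TPM. The median of the other heart-restricted genes ran from 0.01 to 0.13. A median was taken as unmoved within 0.1 on the log2 scale, since no spread between samples was at hand. As alternatives added after seeing the data, each gene's own ratio was computed under the 3 scalings. Tnnt2 and Tnni3 changed sign under centring (-0.03 and -0.03) and with mitochondrially encoded genes left out (-0.03 and -0.03), and the other 8 genes kept theirs. Leaving out single replicates was not run, since the tables hold means only. No paired analysis was possible because the columns carry no replicate numbers.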
